A study of Mus musculus with 2 samples.

Results

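The interferon regulatory factors (IRFs) are a family of transcription factors that share an N-terminal DNA-binding domain with a conserved repeat of tryptophans and bind variants of the GAAA element found upstream of interferon genes and interferon-stimulated genes. Irf3, Irf5 and Irf7 are activated by sensors of foreign nucleic acids and switch on interferons and cytokines. Irf9 works with Stat2 downstream of the type I interferon receptor, Irf1 and Irf2 bind the same sites as activator and mainly as repressor, and Irf4 and Irf8 act in myeloid and lymphoid cells together with Ets and AP-1 factors. Irf8 drives the monocyte and macrophage programme and restrains osteoclast formation, in part by holding back the factor Nfatc1. The family was taken as the non-control probes of the arrays whose RefSeq accession belongs to Irf1, Irf2, Irf3, Irf4, Irf5, Irf7, Irf8 or Irf9, which gave 8 genes with 9 probes out of 20654 named genes and 55649 probes. The rule uses accessions only, though the family was picked with earlier results of these data known.

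The RNA came from cultures of C57BL/6 mouse bone marrow, all from females, and was hybridised to 1-colour (Cy3) Agilent arrays, 1 array for the Dnmt3a KO group (genotype labelled Dnmt3a knockout) and 1 array for the WT group (labelled wild type). Dnmt3a is an enzyme that sets new methyl marks on DNA. In both groups adherent monocyte/macrophage precursors grown with the growth factor M-CSF were then given RANKL as well, a cytokine under which such precursors become bone-resorbing osteoclasts. The comparison asks how transcripts differ in osteoclast cultures made from cells labelled as Dnmt3a knockout. The knockout allele, the cells in which it acts, the age of the mice, the length of the RANKL culture and whether animals were pooled are not given in the sources used here. Neither genotype has a replicate array. No test was therefore possible, and every difference below compares 2 arrays, not 2 conditions with a known spread.

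A signal is the background-subtracted brightness of a spot as the scanner software gave it. A difference is the log2 signal on the Dnmt3a KO array minus that on the WT array, after each signal was divided by the 75th percentile of its array. The error (SE) beside it is the scanner software's own error of both spots and leaves out the variation between cultures or mice. A gene counted as measured when its probe was well above background on both arrays, which held for 13479 genes, and their median difference was 0.01. Spots well above background made up 59.7% of the Dnmt3a KO array and 52.7% of the WT array. The probe for Dnmt3a gave 1822 on the Dnmt3a KO array and 7042 on the WT array, a difference of -1.92 (SE 0.20). The labels do not say which exons were deleted, so its place relative to them is unknown.

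Directions are relative to the bulk of genes. Spike-in probes detect RNA that is added in the labelling kit, and those well above background in most of their spots on both arrays were used. These 8 probes were themselves higher on the Dnmt3a KO array by 0.30 to 0.74, with a median of 0.53. Scaling to that median lowers every difference by 0.53 and puts the median of all measured genes at -0.51. Both values are given below for each IRF gene.

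Promoter sequence is shown for Irf8, Irf1 and Irf2, the genes with a match to a searched interferon-response motif, and for Irf7, the gene with the largest difference. They are the 250 bases before the RefSeq start (GRCm38.p6, read 5′ to 3′ on the gene's strand), with motif matches in capitals. The motifs, searched on both strands from 250 bases before to 50 bases after each start, were the core of the interferon-stimulated response element (GAAA, any 2 bases, GAAA), the gamma-activated site (TTCNNNGAA, its own reverse complement) and the composite of an Ets and an IRF site (GGAA, any 2 bases, GAAA).
Irf8, chr8:120736108-120736357, plus strand: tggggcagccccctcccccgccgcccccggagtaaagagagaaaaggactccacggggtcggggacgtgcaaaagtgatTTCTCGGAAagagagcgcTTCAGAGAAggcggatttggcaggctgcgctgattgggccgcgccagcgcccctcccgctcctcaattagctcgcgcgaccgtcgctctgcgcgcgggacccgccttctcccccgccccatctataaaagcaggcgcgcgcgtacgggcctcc
Irf1, chr11:53769764-53770013, plus strand: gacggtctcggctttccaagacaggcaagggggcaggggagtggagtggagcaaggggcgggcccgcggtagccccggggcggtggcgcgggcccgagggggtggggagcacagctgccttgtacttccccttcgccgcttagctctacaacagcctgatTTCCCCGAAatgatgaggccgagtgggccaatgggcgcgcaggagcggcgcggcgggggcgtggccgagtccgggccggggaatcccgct
Irf2, chr8:46739495-46739744, plus strand: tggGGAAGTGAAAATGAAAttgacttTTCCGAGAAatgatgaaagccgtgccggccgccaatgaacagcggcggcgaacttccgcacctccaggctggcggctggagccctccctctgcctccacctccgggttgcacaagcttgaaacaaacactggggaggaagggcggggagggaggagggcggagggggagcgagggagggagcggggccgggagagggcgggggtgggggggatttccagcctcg
Irf7, chr7:141266425-141266674, minus strand: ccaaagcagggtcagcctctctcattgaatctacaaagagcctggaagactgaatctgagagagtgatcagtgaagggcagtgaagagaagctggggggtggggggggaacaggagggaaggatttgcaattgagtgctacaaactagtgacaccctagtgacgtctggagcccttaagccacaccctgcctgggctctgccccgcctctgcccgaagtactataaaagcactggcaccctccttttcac
All 8 genes were found in the RefSeq promoter table, with 11 start sites. The Irf8 window held 2 gamma-activated sites, from -171 to -163 and from -153 to -145 relative to the start, and Irf1 held 1, from -90 to -82. The Irf2 window held a composite site (-247 to -238) that overlaps a response element core (-241 to -232), and a gamma-activated site from -224 to -216. No match lay in the windows of Irf3, Irf4, Irf5, Irf7 and Irf9 or in the second windows of Irf1 and Irf8. Over all 32851 promoter windows of that length, 8.30% held the gamma-activated site, 3.44% the response element core and 2.72% the composite. A match describes the letters only, and no binding was measured. The upstream window of Irf8 held 38 CpG dinucleotides, the sequence that DNA methyltransferases modify, against a median of 7 over all windows, and 95.0% of windows held fewer. The window of the other Irf8 start held 8. High counts were not particular to Irf8: Irf1 held 32 CpG dinucleotides at its upstream start and 43 at the other, and Irf5 held 35. Irf2 held 19, Irf3 held 18, Irf4 held 11, Irf7 held 7, and Irf9 held 9 and 1 at its pair of starts. DNA methylation was not measured in these files.

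Of the 8 genes, 7 were higher on the Dnmt3a KO array, led by Irf7 and Irf8, and Irf3 was not. The median difference over the 8 genes was 0.45, or 1.36-fold, with a range from -0.08 for Irf3 to 1.05 for Irf7. A difference above 0 was found in 7 of 8 IRF genes, beside 51.9% of all measured genes. With spike-in scaling it was found in 2 of 8, Irf7 and Irf8, beside 7.48% of all measured genes, and the family's median was -0.08. At least 1.5-fold higher were 2 of 8 genes, Irf7 and Irf8, against a background of 5.82% of genes, and 0 of 8 were at least 1.5-fold lower, against 4.69%. With spike-in scaling no IRF gene was 1.5-fold higher, where the background was 0.49%, and 1 of 8, Irf3, was at least 1.5-fold lower, where the background was 39.5%. Irf7 alone passed 2-fold, where the background was 0.824% higher and 0.727% lower. A difference upward and larger than its own scanner error was seen for 7 of the 8 genes and for 24.0% of all measured genes. With spike-in scaling it was seen for 1 of the 8, Irf7, and for 2.72% of all measured genes.

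**Figure D1:**
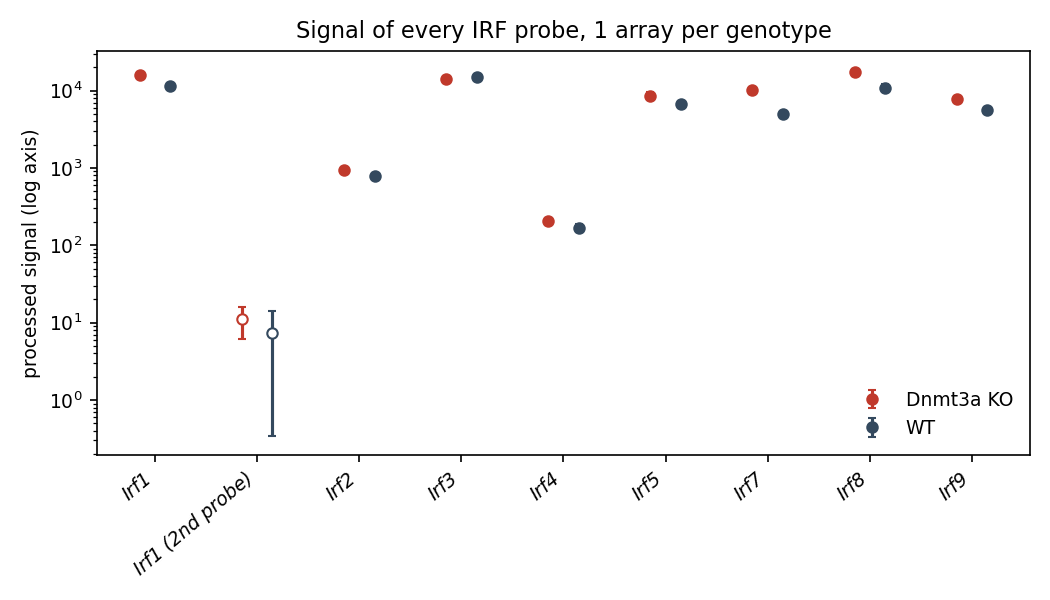
Processed signal (log axis) of each of the 9 IRF probes on the Dnmt3a KO array (red, left) and the WT array (dark, right), with bars for the scanner software's error and open symbols for spots not well above background. Irf3 is the only gene whose Dnmt3a KO point lies below its WT point, and the second Irf1 probe is near background on both arrays. Signals of different probes are not on a common scale of abundance.

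Irf8 gave a signal of 17203 on the Dnmt3a KO array and 10929.7 on the WT array. The difference was 0.68 (SE 0.20, 1.61-fold), and the unscaled ratio of the signals was 1.57. The spot was bright on both arrays: the raw pixel median was 19827.5 on the Dnmt3a KO array and 12525 on the WT array, over surroundings of 38 and 44 on the same arrays. Of the 13479 measured genes, 510 (3.78%) had a larger difference. Among the 1733 measured genes whose mean level lay within 1 log2 unit of that of Irf8, 65 (3.75%) did, so the position of Irf8 was about the same among genes of like brightness. The median difference of the 137 measured spots within 8 rows and columns of the Irf8 spot was 0.01, so the spots around it were not shifted in the same way. With spike-in scaling Irf8 stood at 0.16, less than its scanner error of 0.20, and 6 of the 8 spike-in probes had a smaller difference than Irf8.

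Irf4, the closest relative of Irf8 and a partner of the same Ets factors, gave a signal of 204 on the Dnmt3a KO array and 169 on the WT array. Its difference was 0.30 (SE 0.21), 1.23-fold, and it was -0.22 with spike-in scaling. The difference of Irf8 exceeded that of Irf4 by 0.38 (SE 0.30), a comparison in which the scaling between arrays cancels. That excess is not much larger than the error of the 4 spots behind it.

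Irf7, which amplifies the type I interferon response once it has been induced, gave 10085.5 on the Dnmt3a KO array and 4962 on the WT array. The difference was 1.05 (SE 0.20, 2.08-fold), the largest of the family. Only 86 of all measured genes (0.638%) had a larger one, and 7 of the 2555 genes of like level (0.274%). The 152 measured spots around it had a median difference of 0.00. With spike-in scaling Irf7 remained higher, by 0.53, and all 8 spike-in probes had a smaller difference than Irf7. Irf3, which is made constitutively and activated by phosphorylation, gave 13893 on the Dnmt3a KO array and 15026 on the WT array, a difference of -0.08 (SE 0.20) that lies within the scanner error. With spike-in scaling Irf3 stood at -0.61. Irf7 therefore differed from Irf3 by 1.14 (SE 0.29) on the same arrays, or 2.20-fold, whatever single factor scales the arrays. Irf5, which acts downstream of Toll-like receptors, gave 8601 on the Dnmt3a KO array and 6661 on the WT array, a difference of 0.40 (SE 0.20, 1.32-fold), and -0.13 with spike-in scaling. Its spot lies near the lower edge of the array in row 379, where the 115 measured spots around it had a median difference of 0.13, the highest such value of the family.

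Irf9, the DNA-binding subunit of the complex that it forms with Stat2 after type I interferon, gave 7802 on the Dnmt3a KO array and 5639 on the WT array. The difference was 0.50 (SE 0.20, 1.41-fold), and -0.03 with spike-in scaling. Irf1, induced by interferon gamma, gave 15968 on the Dnmt3a KO array and 11525.5 on the WT array at its bright probe, for the transcript NM_008390. That difference was 0.50 (SE 0.20, 1.41-fold), and -0.03 with spike-in scaling. The other Irf1 probe, for NM_001159393, gave 11.0 on the Dnmt3a KO array and 7.31 on the WT array and was not well above background on either, so no fold is read from it. Irf2, known mainly as a repressor at the sites Irf1 activates, gave 946 on the Dnmt3a KO array and 792 on the WT array, a difference of 0.29 (SE 0.20, 1.22-fold), and -0.24 with spike-in scaling. The difference of Irf1 exceeded that of Irf2 by 0.22 (SE 0.29), within the error of these spots.

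The difference was larger than 0.50 in 8.20% of all measured genes for Irf1 and in 8.27% for Irf9, and 12.1% of genes had a larger difference than Irf5, 16.9% than Irf4, 18.1% than Irf2 and 63.9% than Irf3. The lower differences of the family thus lay at values that many genes of these arrays reached.

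**Figure D2:**
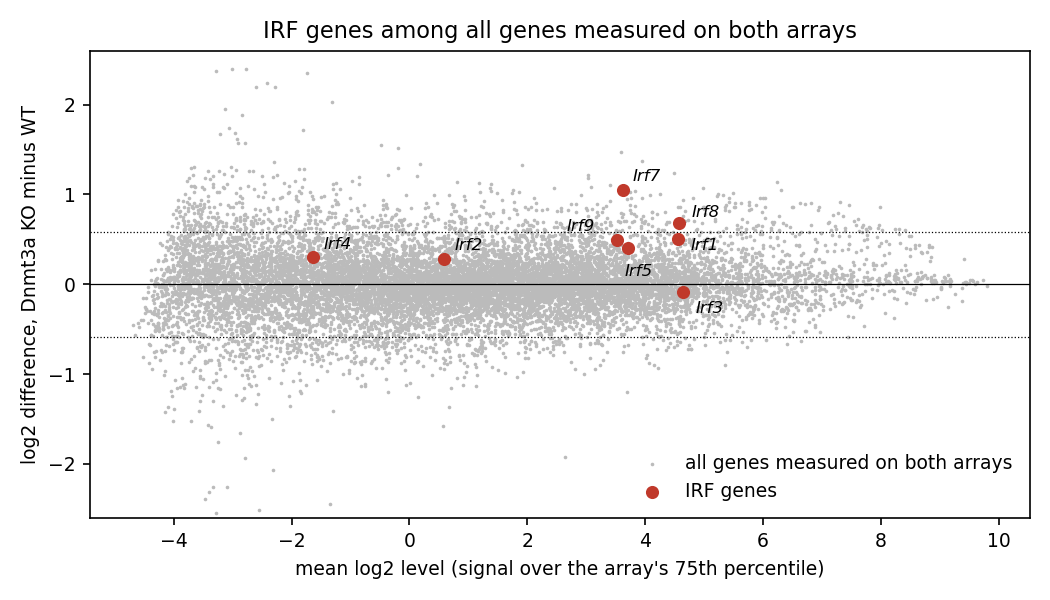
Log2 difference (Dnmt3a KO minus WT, vertical axis) against mean log2 level (horizontal axis) for all 13479 genes measured on both arrays (grey) and the 8 IRF genes (red), with dotted lines at 1.5-fold; 8 genes lie outside the plotted range. Irf7 sits at 1.05 near the upper edge of the cloud, Irf8 at 0.68 just above the upper line, and Irf3 at -0.08.

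**Figure D3:**
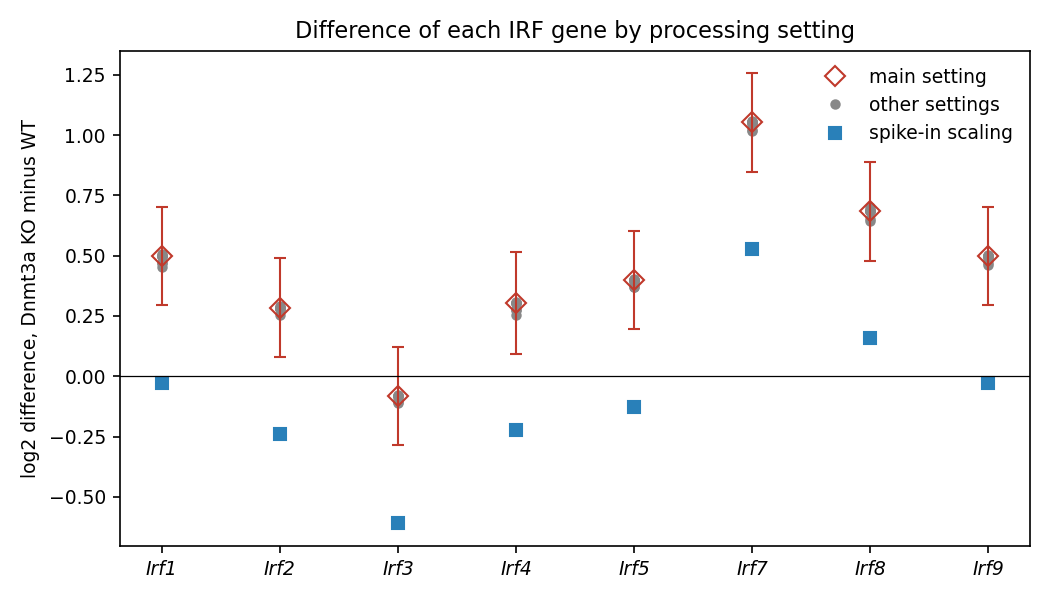
Log2 difference of each IRF gene (Dnmt3a KO minus WT) in the main setting (open red diamonds, with bars for the scanner error), with spike-in scaling (blue squares) and in the other settings tried (grey points). The grey points stay within the bars, while the blue squares lie 0.53 lower, which leaves Irf7 and Irf8 above 0.

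Genes that act around the IRFs were read from 10 lists of the pathway, each given beside the 5.82% of measured genes that were at least 1.5-fold higher, the 4.69% that were as much lower and the all-gene median of 0.01. Of the interferon genes themselves, 8 of the 16 on the array were measured, with a median of -0.02, and none was 1.5-fold higher or lower. Ifnab (0.33) and Ifna2 (0.30) were highest and Ifna13 (-0.41) and Ifna5 (-0.11) lowest. The Ifna genes and Ifnab are near-identical copies of each other, so each of their values is uncertain. Ifnb1, the first interferon made by stimulated macrophages, gave 12.1 on the Dnmt3a KO array and 14.1 on the WT array and was not well above background on either. Ifng and 4 other ligands were likewise not above background on either array. Ifna11 and Ifna7, named after their values were seen, were above background on the Dnmt3a KO array only. Ifna11 gave 37.0 on the Dnmt3a KO array and 24.6 on the WT array, with a scanner error of 0.40 on the log2 scale. Ifna7 gave 25.1 on the Dnmt3a KO array and 17.2 on the WT array, with an error of 0.60. Both genes lie near background, so no fold is read from them.

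The receptors of interferon were all measured. None of 6 was 1.5-fold higher or lower, and their median was 0.25 (-0.27 with spike-in scaling). Ifngr1, the ligand-binding chain of the interferon gamma receptor, was highest at 0.48, followed by Ifnlr1 at 0.44. Ifngr2 (-0.01) and Il10rb (0.19) were lowest, and Ifnar1, a chain of the type I receptor, stood at 0.23 with further probes at 0.14 and 0.19. Of the kinases and STAT factors that carry the signal inward, all 9 were above 0, beside 51.9% of all measured genes. At least 1.5-fold higher were 2 of them, and the median of the 9 was 0.34 (-0.19 with spike-in scaling). Stat4 had the largest difference, 1.12 (SE 0.31), at low signals of 83.4 on the Dnmt3a KO array and 39.3 on the WT array. Stat2, the partner of Irf9, gave 8628 on the Dnmt3a KO array and 5459.6 on the WT array, a difference of 0.69 (SE 0.20), almost the same as that of Irf8. The kinases Jak1 (0.19) and Tyk2 (0.21) were lowest.

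Among 23 measured sensors, adaptors and kinases that lie upstream of Irf3, Irf5 and Irf7, 6 were at least 1.5-fold higher and 0 as much lower, with a median of 0.24 (-0.29 with spike-in scaling). The RNA sensor gene Ddx58 (0.80, a further probe 0.65) and its regulator Dhx58 (0.78) were highest. Traf6 (-0.44) and Tank (-0.40), both adaptors, were lowest, and the kinase Tbk1, which phosphorylates Irf3, stood at -0.17. The list thus held members on both sides, with 18 above 0 and 5 below, beside 51.9% of all measured genes above 0. Proteins that bind DNA with IRFs or act as their cofactors had a median of 0.04 over 17 genes, of which 1 was 1.5-fold higher and 0 as much lower. That gene was Batf3 (0.64), an AP-1 factor that works with Irf8 in dendritic cells, and Fli1 (0.58) came next. Spi1, which encodes PU.1, the main Ets partner of Irf8, stood at -0.09 (SE 0.20). Irf2bpl (-0.41, its other probe -0.44) and the acetyltransferase gene Kat2b (-0.37) were lowest, and Irf2bp2, a corepressor of Irf2, stood at -0.25 (its other probe -0.38). Negative regulators of the pathway lay on both sides of 0 (16 genes, median -0.01), 2 at least 1.5-fold higher and 1 as much lower. Usp18, an interferon-induced brake on the type I receptor, was highest at 0.80 and Trim30a next at 0.60, while Socs2 (-0.68, further probes at -0.84 and -0.74) and Tnfaip3 (-0.47) were lowest.

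Target genes of the family were read from 3 lists. Of 24 measured genes induced by type I interferon, 16 were at least 1.5-fold higher and 0 as much lower, with a median of 0.68 (0.16 with spike-in scaling). With spike-in scaling 2 of the 24, Cxcl10 and Cmpk2, were at least 1.5-fold higher and 1 as much lower, against 0.49% and 39.5% of all measured genes. Cxcl10 (1.19) and Cmpk2 (1.12, its other probe 0.92) were highest and were the 2 genes of the list with a larger difference than Irf7. Xaf1 (-0.21) was lowest at its brightest probe, but its other probe gave 0.95, and Oas2 stood at 0.29. The difference of Irf7 was thus near the top of its own target list, that of Irf8 lay at its median, and 19 of the 24 targets exceeded that of Irf9. Of 23 genes induced by interferon gamma, 7 were at least 1.5-fold higher and 0 as much lower, with a median of 0.43 (-0.10 with spike-in scaling). Gbp2 (1.03) and Gbp4 (0.73), which encode guanylate-binding proteins, were highest, and Tap2 (-0.12) and Nos2 (-0.11) lowest.

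Of 11 measured macrophage genes known as direct targets of Irf8, 4 were at least 1.5-fold higher and 1 as much lower, with a median of 0.43 (-0.10 with spike-in scaling). The cytokine gene Il18 (0.67) and Cybb, which encodes a subunit of the phagocyte oxidase (0.64), were highest. Cybb, a gene bound by Irf8 together with PU.1, gave 4554 on the Dnmt3a KO array and 2982 on the WT array. Ptpn13 was lowest at -1.52 (SE 0.38), but its other probe gave 0.41, so its probes disagree, and Nos2 (-0.11) was next. The 13 osteoclast genes on whose programme Irf8 acts as a brake were all below 0, whereas 51.9% of all measured genes were above 0. The median of the 13 was -0.55 (-1.08 with spike-in scaling). At least 1.5-fold lower were 5 of them and 0 were as much higher, and with spike-in scaling 12 of 13 were lower by that much, against 39.5% of all measured genes. Tnfrsf11a, the RANK receptor gene, was lowest (-1.20), followed by Calcr (-0.84), while Acp5 (-0.00) and Ctsk (-0.18) were nearest to 0. Nfatc1, the factor that Irf8 binds and restrains, gave 5873 on the Dnmt3a KO array and 8771 on the WT array, a difference of -0.55 (SE 0.20), with its other probe at -0.23. Irf8 and Nfatc1 thus differed in opposite directions between these 2 arrays. With spike-in scaling Nfatc1 stood at -1.08, while the 0.16 of Irf8 was within its scanner error of 0.20, so the upward direction of Irf8 is not settled under that scaling. Of the other pathway lists, only that of the kinases and STAT factors kept a gene at least 1.5-fold higher under it (1 of 9). As much lower were then 4 of 8 ligands, 5 of 23 sensors, 6 of 17 partners, 6 of 16 negative regulators, 2 of 23 interferon gamma targets and 2 of 11 Irf8 targets, and no receptor, kinase or STAT gene.

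**Figure D4:**
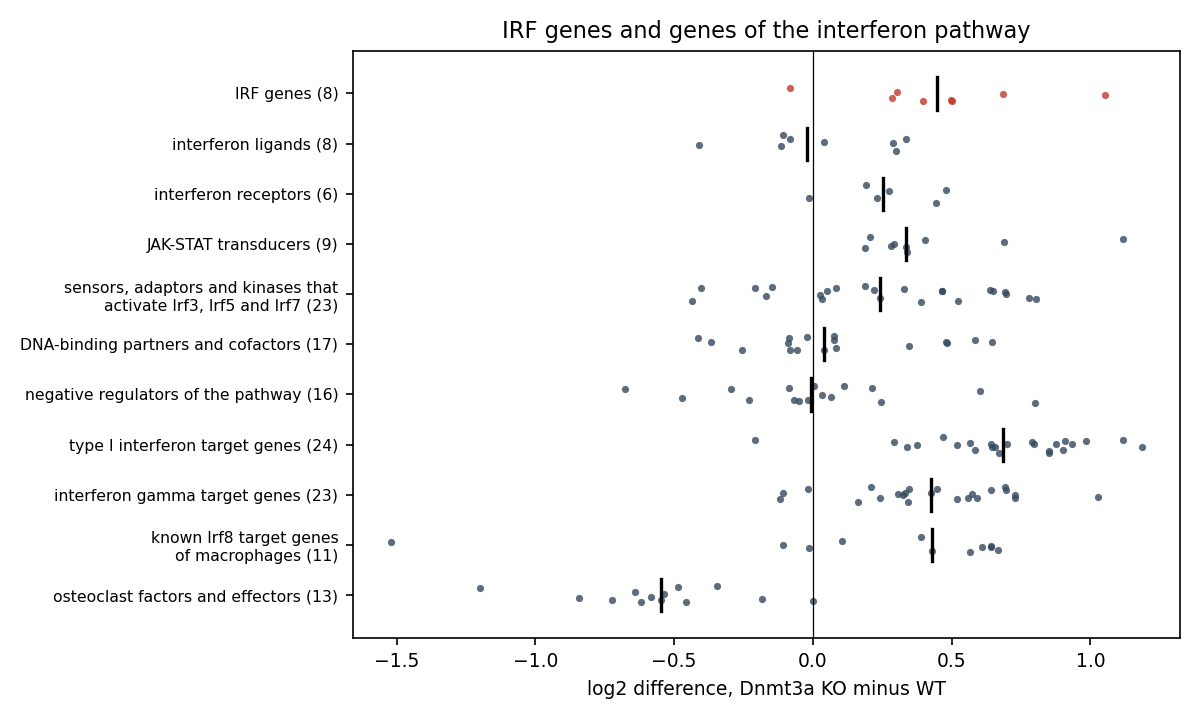
Log2 difference (Dnmt3a KO minus WT, horizontal axis) of each gene measured on both arrays, for the 8 IRF genes (red) and 10 lists of pathway genes (dark), with the number of genes in parentheses and black bars at the medians. The type I interferon target genes have a median of 0.68, the IRF genes 0.45, the interferon ligands -0.02 and the osteoclast genes -0.55.

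IRFs are also expressed by other cells that such cultures can hold, and in bulk RNA fewer cells of a type cannot be told apart from less RNA per cell. Osteoclast markers were bright on both arrays, with 10 of 10 measured. All 10 were below 0, whereas 51.9% of all measured genes were above 0. The median difference of the 10 markers was -0.60 (-1.13 with spike-in scaling). At least 1.5-fold lower were 5 of them, against 4.69% of all measured genes. The 10 markers are also among the 13 osteoclast genes listed above, so the same 5 genes are counted in both places. The summed level of the 10 markers, in units of the 75th percentile, was 1718 on the Dnmt3a KO array and 1974 on the WT array. Most of it came from Acp5 and Ctsk, the markers nearest to 0. In this and each sum below the brightest genes weigh most, so a sum is no count of cells. Macrophage markers, of a cell type that makes Irf8, had a median difference of 0.69 over 10 of 11 genes on the array (0.16 with spike-in scaling). Of the 10, 9 were above 0, beside 51.9% of all measured genes, and 6 were at least 1.5-fold higher, against 5.82%. With spike-in scaling 2 were as much higher, against 0.49%, and 1 as much lower, against 39.5%. Itgam alone was below 0 (-0.27), but its further probes gave 0.22 and 0.32. The summed level of the macrophage markers was 776 on the Dnmt3a KO array and 666 on the WT array. Most of that macrophage sum came from Csf1r, which differed by 0.10 (further probes at 0.35 and 0.50). Cd163 was not above background on either array. For conventional dendritic cells the markers stood at a median of 0.56, from 7 of 9 genes (0.03 with spike-in scaling). Their summed level was 64.4 on the Dnmt3a KO array and 45.1 on the WT array. Most of that sum came from Clec10a, with signals of 34164 on the Dnmt3a KO array and 23693 on the WT array. Of the same list, Xcr1 and Clec9a were not above background on either array, while Flt3 and Zbtb46 were measured at low signals. Flt3 gave 102 on the Dnmt3a KO array and 67.4 on the WT array. Zbtb46 gave 68.0 on the Dnmt3a KO array and 52.5 on the WT array. For plasmacytoid dendritic cells, which are rich in Irf7 and Irf8, the marker median was 0.18, from 7 of 8 genes (-0.35 with spike-in scaling). Their summed level was 237 on the Dnmt3a KO array and 234 on the WT array. Nearly all of that sum was Siglech, which differed by 0.00, so the sum adds little to that value. Neutrophil markers had a median of 0.49 over 11 of 11 genes (-0.03 with spike-in scaling) and a summed level of 349 on the Dnmt3a KO array and 260.2 on the WT array. B lymphocyte markers, relevant to Irf4 and Irf8, had a median of 0.18 over 7 of 10 genes (-0.35 with spike-in scaling) and a summed level of 13.5 on the Dnmt3a KO array and 13.7 on the WT array, with Igll1 and Jchain not above background on either. Markers of T and NK cells stood at a median of 0.18, from 5 of 10 genes (-0.35 with spike-in scaling) and a summed level of 27.5 on the Dnmt3a KO array and 24.8 on the WT array, and Cd3d, Cd3g, Cd8a, Klrb1c and Ncr1 were not above background on either. Markers of stroma and bone-forming cells stood at a median of -0.70, from 9 of 10 genes (-1.22 with spike-in scaling). Of the 9, 6 were below 0 and 3 above it, beside 51.9% of all measured genes above 0. At least 1.5-fold lower were 5, against 4.69%, and 1 was as much higher, against 5.82%. Above 0 were Bglap2 (0.84, at low signals of 67.2 on the Dnmt3a KO array and 38.2 on the WT array), Lepr (0.16) and Dcn (0.03). Their list had a summed level of 81.6 on the Dnmt3a KO array and 125 on the WT array, with Runx2 not above background on either. The part of these cells in the differences of the IRF genes was not tested.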

How the data were processed

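The deposited unit is a spot intensity that was background-subtracted and detrended within each array, per the file headers, with Feature Extraction 10.10.1.1 by Agilent; the submitters' processing notes name version 9.1. Probe positions in the files are on mm9. The deposited value table holds the same intensity multiplied by 1 factor per array (1.54 for Dnmt3a KO, 1.55 for WT, over spots with a signal above 1000), linear and uncentred, with column medians of 66.5 for Dnmt3a KO and 59.6 for WT; how the factor was chosen is unknown. Per the file headers, marks of other kinds give whether a spot is well above background, saturated or uneven.

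From these, each processed signal was divided by its array's 75th percentile over 59305 non-control spots and put on the log2 scale (571.6 for Dnmt3a KO, 583.6 for WT). Marked spots (172 on the Dnmt3a KO array, 157 on the WT array) were left out, none of them of an IRF probe. Accessions were matched to a RefSeq gene table of GRCm38.p6, which named 27224 (48.9%) of the probes, and the brightest probe stood for a gene. The lowest signal well above background was 17.7 on the Dnmt3a KO array and 25.8 on the WT array. Both arrays were scanned together on 1 slide. The fold counted was 1.5, and the number of arrays limits the precision. The scaling and fold calculation were tested on simulated signals with known folds, a single factor between arrays and as many genes raised as lowered. That simulation held no common shift of all genes and no unequal detection, so it checks the arithmetic and not the choice of scaling. Python 3.11.15 was used, with limma 3.58.1 for normexp.

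Members and lists were chosen with earlier results of these data known. Genes named were all IRF genes, Dnmt3a, the 2 highest and 2 lowest measured genes of each list and a set of pathway genes whatever their values (Stat2, Jak1, Spi1, Batf3, Irf2bp2, Nfatc1, Tbk1, Ifnb1, Ifnar1 and Ifngr1). Outside this rule, Ifng, Ifna11, Ifna7, Siglech, Clec10a and Csf1r were named after their values were seen. So were Itgam, Bglap2, Lepr, Dcn, Flt3, Zbtb46 and the marker genes given as not above background. No genes of like pattern were named, since likeness over 2 arrays is not defined. Another gene of the family and a gene of the pathway lists are not reported here.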

Additional observations from a re-analysis of the deposited data

How the results depend on the processing

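Of the settings tried, spike-in scaling changed the reading of the family. It put the median over the 8 IRF genes at -0.078, the count at least 1.5-fold higher at 0 and the count as much lower at 1 (Irf3), and Irf8 at 0.16. Under it Irf1 stood at -0.026, Irf2 at -0.24, Irf4 at -0.22, Irf5 at -0.13 and Irf9 at -0.028, all turned in sign, by construction of a common shift. It also turned the medians of the receptors (-0.27), the JAK and STAT genes (-0.19), the sensors (-0.29), the partners (-0.49), the interferon gamma targets (-0.10) and the Irf8 targets (-0.10). Medians near 0 turned in sign elsewhere: the ligands to 0.027 with no filter on dim probes and to 0.093 without the top rows of the array, and the negative regulators to 0.020 with normexp, 0.0058 with no filter and 0.0073 with the mean over probes. In the other 9 settings (quantile normalization, the median of bright probes, normexp, the deposited value table, no scaling, no filter, marked spots kept, the mean over probes, and without the top rows, which drops Irf3 and Irf4) Irf8 ranged from 0.65 to 0.70 and Irf7 from 1.02 to 1.06.

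Over all genes, 784 were at least 1.5-fold higher and 632 lower, so 55.4% of these calls were upward. The counts were 66 and 5325 with spike-in scaling (1.22% upward), 2565 and 1217 with no filter on dim probes (67.8%), 491 and 291 with normexp (62.8%), and 641 and 797 after quantile normalization (44.6%). Normexp ran on the spot medians, a setting chosen after the data were seen; normexp on spot means was not run, since the files used here give medians. No paired analysis was possible because each genotype has 1 array.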
